A study of Anas platyrhynchos and Gallus gallus and Anas rubripes with 21 samples.

Results

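The Kv1 potassium channels and the complex that holds them beside the node of Ranvier are described here through 9 genes, which were found by their consensus symbol among the 20451 genes of the deposited table. Of these, 5 encode pore-forming Kv1 alpha subunits (*KCNA1*, *KCNA2*, *KCNA4*, *KCNA5* and *KCNA6*), 2 encode the cytoplasmic beta subunits that bind them (*KCNAB1* and *KCNAB2*), and *CNTNAP2* and *CNTN2* encode the cell adhesion molecules Caspr2 and TAG-1. All 9 stand in both the duck and the chicken annotation, each with 1 row. Levels are in RPKM, reads scaled to gene length and to library size. Averaged over the species, 8 of the 9 reached 1 RPKM and entered the comparisons across genes, and *KCNA4* did not.

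The RNA came from the trigeminal ganglion, whose sensory neurons innervate the bill, and 21 untreated embryos near hatching were used, 3 for each of 7 species. They were Pekin duck (embryonic days 25 to 26), black duck (21 to 22), lesser scaup (25 to 26), ruddy duck (30 to 31), harlequin duck (28 to 29), wood duck (28 to 31) and chicken (19 to 21). By the paper's methods, all were taken at a like stage, once the inner shell membrane was pierced. Age in days still differed with species, and the parts of age and species cannot be told apart. For each species the table gives a gene 1 value, which is the authors' mean of 3 birds, and no spread between birds. An order of species for a gene is therefore a description, and whether neighbours in that order differ could not be tested. Every SD below is a spread between duck species, not between birds.

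In myelinated axons, sodium channels gather at the node, and Kv1 channels lie under the myelin in the juxtaparanode, separated from the node by the paranodal junction. There Caspr2 on the axon and TAG-1 on axon and glia anchor the channels, which damp repetitive firing. The alpha subunits assemble as tetramers of the same or of different Kv1 subunits, and the beta subunits alter their inactivation and their transport to the membrane. In rodents, Kv1.1 and Kv1.2 set the firing of large sensory neurons, and a Kv1 current in nociceptors raises the threshold for mechanical stimulation.

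*KCNA1*, which encodes Kv1.1, was the Kv1 alpha gene of highest level in 5 of the 6 ducks. Its level was 76.5 RPKM in Pekin duck, 79.6 RPKM in black duck, 61.4 RPKM in wood duck, 48.1 RPKM in lesser scaup, 28.2 RPKM in harlequin duck and 10.9 RPKM in ruddy duck, against 23.6 RPKM in chicken. Thus 5 ducks lay above chicken and ruddy duck lay below it, and the highest duck was 7.33-fold above the lowest. The mean of the ducks was 50.8 RPKM (SD between 6 duck species 27.3), or 2.16-fold the chicken level. In whole ganglia, fewer cells of a type and less RNA per cell cannot be told apart.

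*KCNA2*, which encodes Kv1.2, was highest in chicken. Its level was 44.6 RPKM in chicken, 26.9 RPKM in wood duck, 22.7 RPKM in black duck, 21.0 RPKM in lesser scaup, 20.2 RPKM in Pekin duck, 14.1 RPKM in ruddy duck and 12.7 RPKM in harlequin duck. Chicken was above all 6 ducks and was 2.28-fold higher than their mean of 19.6 RPKM (SD 5.35). The ducks varied less in *KCNA2* than in *KCNA1*, with the highest 2.12-fold above the lowest.

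The other 3 alpha genes were lower. *KCNA6*, which encodes Kv1.6, had levels of 14.7 RPKM in wood duck, 10.4 RPKM in lesser scaup, 9.65 RPKM in black duck, 7.68 RPKM in harlequin duck, 5.74 RPKM in Pekin duck and 2.01 RPKM in ruddy duck. Chicken, at 5.84 RPKM, lay within the range of the ducks. *KCNA5*, which encodes Kv1.5, lay between 2.63 and 4.95 RPKM in 5 ducks, at 0.602 RPKM in ruddy duck and at 0.744 RPKM in chicken. It was thus low in the same pair of species in which *KCNA1* was lowest. *KCNA4*, which encodes the rapidly inactivating Kv1.4, was below 1 RPKM in every species, the ducks lying between 0.0322 and 0.220 RPKM and chicken at 0.696 RPKM.

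**Figure D1:**
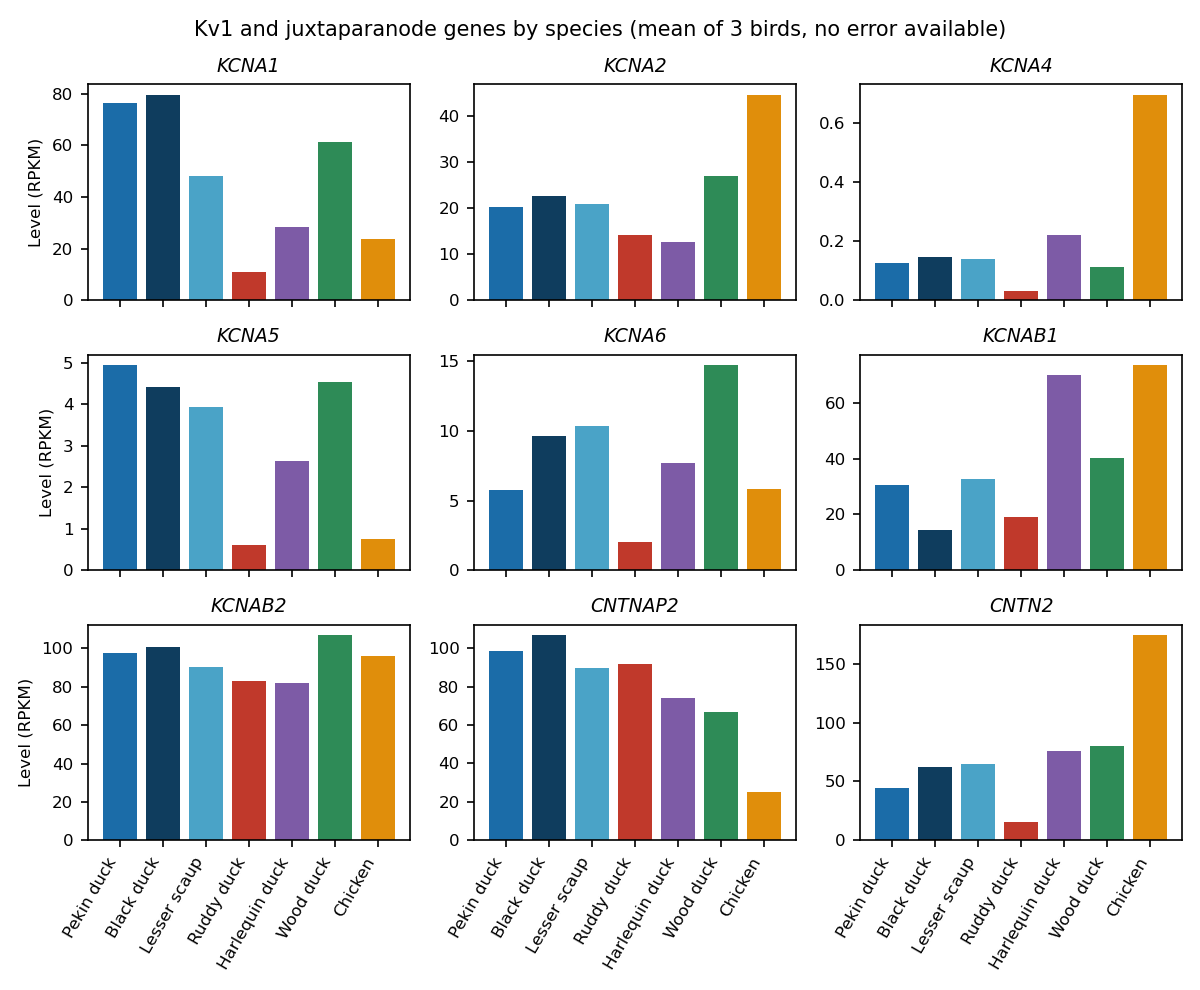
Level of each of the 9 genes (RPKM, y axis, starting at 0 and scaled per gene) in the 7 species (x axis); each bar is the authors' mean of 3 birds and carries no error. *KCNA1* stood between 10.9 RPKM in ruddy duck and 79.6 RPKM in black duck, *KCNAB2* differed little among the species, and *CNTN2* was highest in chicken at 174 RPKM.

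The make-up of the alpha subunit mRNA was compared within each species, a measure that no scaling of the libraries changes. *KCNA1* gave 71.2% of the summed RPKM of the 5 *KCNA* genes in Pekin duck and 68.4% in black duck. It gave 57.6% in lesser scaup, 57.03% in wood duck, 54.8% in harlequin duck, 39.3% in ruddy duck and 31.2% in chicken. *KCNA2* gave 59.1% in chicken and 51.1% in ruddy duck, and between 18.8% and 25.1% in the other 5 ducks. Chicken and ruddy duck were thus the species in which *KCNA2* was above *KCNA1*, with ratios of *KCNA2* to *KCNA1* of 1.89 and 1.30, while the ratio lay between 0.264 and 0.450 elsewhere.

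The levels behind these like shares differed between chicken and ruddy duck. The 5 genes summed to 75.5 RPKM in chicken, between 51.4 RPKM in harlequin duck and 117 RPKM in black duck among 5 ducks, and 27.6 RPKM in ruddy duck. In chicken the share of *KCNA2* went with a *KCNA2* level above all ducks, and in ruddy duck with a *KCNA1* level below all other species. Which annotation gave each species its value is not stated for genes in both. If it differed between ducks and chicken, gene lengths may differ as well, and the part of length in the shares was not tested. Ruddy duck reads were aligned to the Pekin duck genome like those of the other wild ducks, and how many were lost by sequence differences is not in the table.

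**Figure D2:**
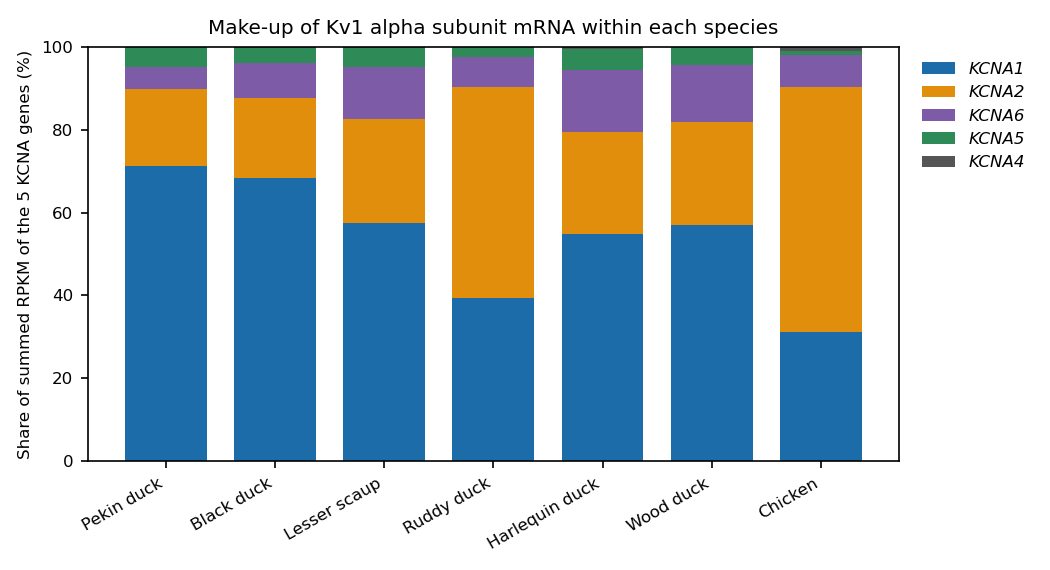
Share of each gene in the summed RPKM of the 5 *KCNA* genes (%, y axis) in each species (x axis), as stacked bars. *KCNA1* takes 71.2% in Pekin duck and 31.2% in chicken, and *KCNA2* takes 51.1% in ruddy duck and 59.1% in chicken.

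Across the species, *KCNA1* and *KCNA5* had levels that moved together. On the log2(RPKM + 1) scale their *r* was 0.93 over the 7 species, 0.98 over the 6 ducks and 0.95 over the 5 ducks without ruddy duck. These are descriptions over species means that share a descent and may share an annotation, and they carry no test. The ratio of *KCNA1* to *KCNA5* stayed between 10.7 and 18.1 in the 6 ducks, ruddy duck included at 18.0, and was 31.7 in chicken. *KCNA1* and *KCNA6* had an *r* of 0.76 over the ducks but 0.04 without ruddy duck, so that this value rested on 1 species. *KCNA1* and *KCNA2* had an *r* of 0.78 over the ducks and 0.23 once chicken was included. Other pairs of members were as close among the ducks. *KCNA2* and *KCNAB2* had an *r* of 0.95 over the ducks, 0.93 without ruddy duck and 0.68 over the 7 species.

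In the RefSeq annotation of a Pekin duck assembly (IASCAAS_PekinDuck_T2T), which is not the build used by the authors and gives gene order only, 7 of the 9 members were found by their duck gene ID. *KCNA5* and *KCNA1* are close neighbors there, with 1 protein-coding gene between them. That gene, LOC101801566, has no name in the sources used here and is listed in the duck annotation alone. Pekin duck had 8.66 RPKM of it, lesser scaup 6.11 RPKM, and its level was 5.99 RPKM in black duck, 5.78 RPKM in wood duck, 3.59 RPKM in harlequin duck and 1.81 RPKM in ruddy duck, and it was listed at 0 in chicken. It was thus lowest in ruddy duck and next lowest in harlequin duck among the ducks, as *KCNA1* and *KCNA5* were. Ruddy duck was the lowest duck in 45.4% of all genes, while the share with harlequin duck next lowest was not counted. Levels of the genes on either side of *KCNA5* and *KCNA1* were not examined. A link between gene order and these levels was not tested. *KCNA2* and *KCNA6* had no match by ID, so their neighbors were not examined.

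Of the beta subunit genes, *KCNAB2* varied least of all members among the ducks, and *KCNAB1* varied 4.83-fold from the lowest to the highest duck. *KCNAB2*, which encodes the subunit Kvbeta2 that aids the axonal targeting of Kv1 channels, had 107 RPKM in wood duck, 101 RPKM in black duck, 97.4 RPKM in Pekin duck, 95.8 RPKM in chicken, 90.1 RPKM in lesser scaup, 82.9 RPKM in ruddy duck and 82.2 RPKM in harlequin duck. Chicken lay in the middle of the ducks, whose highest value was 1.30-fold the lowest. *KCNAB1*, which encodes Kvbeta1, a subunit that confers fast inactivation on Kv1 channels, had 73.6 RPKM in chicken and 69.9 RPKM in harlequin duck. In the other ducks it was 40.3 RPKM in wood duck, 32.6 RPKM in lesser scaup, 30.4 RPKM in Pekin duck, 19.0 RPKM in ruddy duck and 14.5 RPKM in black duck. *KCNAB1* therefore gave 46.0% of the 2 beta genes in harlequin duck and 43.5% in chicken, and between 12.6% and 27.4% in the other ducks. The beta genes together reached 0.987 times the level of the alpha genes in black duck and 3.69 times in ruddy duck, with 2.24 times in chicken.

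The 2 adhesion genes of the juxtaparanode went in opposite directions between ducks and chicken. *CNTNAP2* had 107 RPKM in black duck, 98.6 RPKM in Pekin duck, 91.9 RPKM in ruddy duck, 89.8 RPKM in lesser scaup, 73.9 RPKM in harlequin duck and 66.9 RPKM in wood duck, against 25.2 RPKM in chicken. All 6 ducks lay above chicken, and their mean was 3.49-fold higher. *CNTN2* had 174 RPKM in chicken, 79.8 RPKM in wood duck, 76.0 RPKM in harlequin duck, 65.0 RPKM in lesser scaup, 62.2 RPKM in black duck, 44.3 RPKM in Pekin duck and 15.5 RPKM in ruddy duck. All 6 ducks lay below chicken, which was 3.05-fold above their mean of 57.1 RPKM (SD 23.9).

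Within each species, the ratio of *CNTNAP2* to *CNTN2* was 0.145 in chicken, 0.839 in wood duck, 0.972 in harlequin duck, 1.38 in lesser scaup, 1.72 in black duck, 2.23 in Pekin duck and 5.91 in ruddy duck. *CNTN2* thus exceeded *CNTNAP2* in chicken, wood duck and harlequin duck. The paranodal pair *CNTN1* and *CNTNAP1*, which encode contactin-1 and Caspr, had a ratio of *CNTNAP1* to *CNTN1* of 0.205 in chicken, between 0.0603 and 0.102 in 5 ducks and 0.0125 in ruddy duck. *CNTNAP2* was 2.40- to 3.65-fold *CNTNAP1* in 5 ducks and 11.4-fold in ruddy duck, while in chicken the ratio was 0.247.

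To compare the 6 ducks, which forage by touch to differing degrees, with chicken, a visual forager, the log2 ratio of the duck mean to chicken was taken on the RPKM + 1 scale, which understates the change of low genes. With 1 value for chicken, this contrast has no test, and a gene was called at a 2-fold difference. Of the 8 members, 3 were called higher in the ducks, namely *CNTNAP2* (log2 ratio 1.76), *KCNA5* (1.37) and *KCNA1* (1.08). Of all 12497 genes, 20.3% were called higher. Another 3 members were called lower, namely *CNTN2* (-1.59), *KCNA2* (-1.15) and *KCNAB1* (-1.07), against 12.1% of all genes. Over the genes that stand in both annotations, as all members do, the background was 19.1% higher and 8.14% lower. *KCNA6* (0.45) and *KCNAB2* (-0.04) were not called, nor was *KCNA4* (-0.59), which was below the filter.

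The members' median was 0.21 and that of all genes 0.22, with 3 called members on each side. All 6 ducks were above chicken for 1 of the 8 members, *CNTNAP2*, against 35.9% of all genes. They were all below chicken for *KCNA2*, *KCNAB1* and *CNTN2*, against 26% of all genes. The remaining 4 overlapped with chicken. With median-ratio scaling of the species, which used 10053 genes, the median of all genes was 0.04, with 16.6% of genes higher and 15.1% lower, and *KCNA1* was no longer called (0.85). After division by the pan-neuronal genes of both annotations, 14.9% of genes were higher and 17.0% lower, and *KCNA1* stood at 0.78. It was not called either without Pekin duck (0.92) or without black duck (0.91). *KCNAB1* was not called without black duck (-0.92) or without ruddy duck (-0.95).

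**Figure D3:**
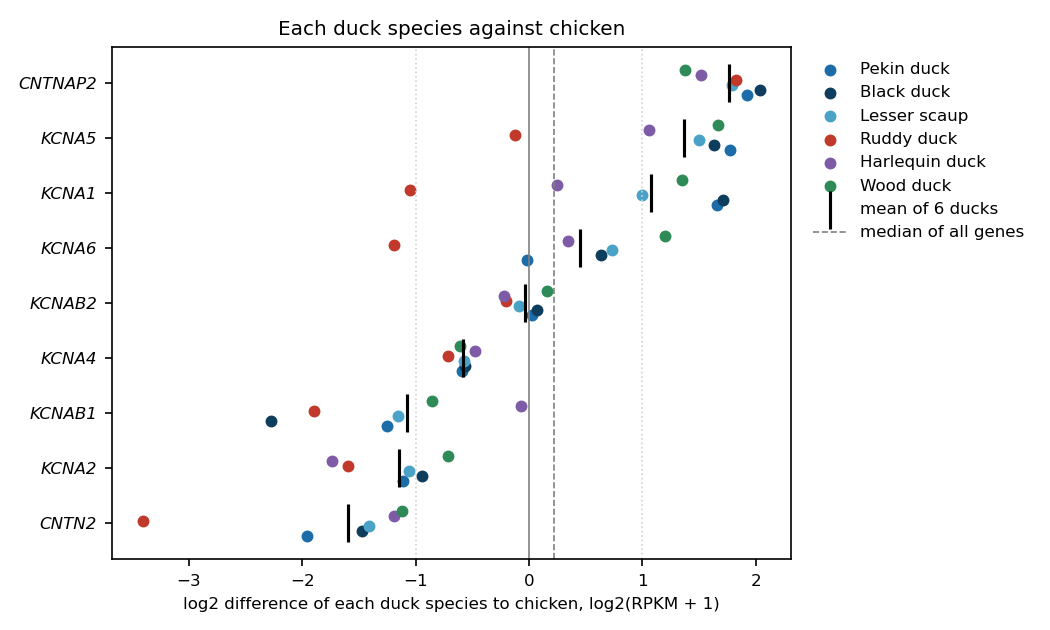
Difference of each duck species to chicken for the 9 genes (y axis) on the log2(RPKM + 1) scale (x axis); points are species, the vertical tick is the ratio of the duck mean, the dashed line the median of all genes (0.22) and the dotted lines a 2-fold difference. All ducks lie to the right for *CNTNAP2* and to the left for *KCNA2*, *KCNAB1* and *CNTN2*. Ruddy duck lies farthest left of the ducks for *KCNA1*, *KCNA4*, *KCNA5*, *KCNA6* and *CNTN2*.

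Several members were far lower in ruddy duck than in the other ducks, a comparison chosen after the values were seen. Relative to the mean of the other 5 ducks, the log2 ratio was -2.33 for *KCNA1*, -2.01 for *CNTN2*, -1.82 for *KCNA6* and -1.67 for *KCNA5*. These 4 of 8 members were at least 2-fold lower, as were 17% of all genes, since ruddy duck differed from the other ducks in many genes. None was 2-fold higher, against 4.76% of all genes. Ruddy duck was the lowest duck in these 4 of 8 members, against 45.4% of all genes, a share near the background. The ratio was -0.94 for *KCNAB1* (-0.23 against Pekin duck and black duck alone, without the 69.9 RPKM of harlequin duck), -0.52 for *KCNA2*, -0.20 for *KCNAB2* (0.03 with median-ratio scaling) and 0.08 for *CNTNAP2* (-0.16 against Pekin duck and black duck alone). The median of the members was -1.31 and that of all genes -0.27. With median-ratio scaling the median of all genes was -0.08, 12.0% of genes were 2-fold lower and 7.54% higher, and the same 4 members were called.

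Listed genes of neurons and glia were set beside the members low in ruddy duck, as a description. The 10 measured pan-neuronal genes summed to 6077 RPKM in ruddy duck, against 4638 to 6021 RPKM in the other ducks and 4381 RPKM in chicken, and none of the 10 was 2-fold lower in ruddy duck (median log2 ratio 0.00). Of the myelin genes, *MBP* was highest in ruddy duck, at 7312 RPKM, and lowest in chicken, at 2234 RPKM. The 7 listed Schwann cell genes in the table summed to 8890 RPKM in ruddy duck, of which *MBP* gave most, to 5771 to 9913 RPKM in the other ducks and to 5209 RPKM in chicken. Gene by gene, 2 of 6 tested Schwann cell genes were at least 2-fold lower in ruddy duck than in the other ducks. None was 2-fold higher, and the median log2 ratio was -0.78. Of all genes, 17% were 2-fold lower and 4.76% higher in ruddy duck, with a median of -0.27. *CNP*, a myelin enzyme, had a ratio of -0.62 and *GJB1*, a gap junction gene of Schwann cells, one of -0.94, while that of *MBP* was 0.44. The satellite glia list summed to 1836 RPKM in ruddy duck, of which *FABP7* gave 1723 RPKM, and to between 584 and 935 RPKM in the other ducks. *FABP7* was 2-fold higher in ruddy duck (1.71), *KCNJ10* was 2-fold lower (-1.09), and *SOX10* (-0.90) and *GLUL* (-0.75) were not called, with a median of -0.75 over the 5 genes. All 5 listed sensory neuron markers were above 0 in every species, with *POU4F1* at 13.5 RPKM or more, and their median ratio in ruddy duck was -0.68. They summed to 394 RPKM in ruddy duck, of which *NEFH* gave 326 RPKM. The sum was 410 to 862 RPKM in the other ducks and 401 RPKM in chicken, so ruddy duck was lowest. The part of these cell types in the members' levels was not tested. Muscle genes were highest in black duck (121 RPKM summed, against 6.34 RPKM in wood duck).

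Genes that act beside the members were examined through lists made with earlier results of these data known. Of 11 measured juxtaparanode partners, 3 were at least 2-fold higher in the ducks than in chicken and none was lower. The 3 were *LGI1* (log2 ratio 1.52, 55.9 RPKM in the ducks against 18.8 RPKM in chicken), *DLG3* (1.36, 9.71 and 3.17 RPKM) and *ADAM23* (1.08, 103 and 48.1 RPKM). *ADAM23* encodes a receptor of the secreted LGI proteins, which link to Kv1 channels, and *DLG3* is a scaffold of the family that binds Kv1 tails. *DLG2*, another scaffold of this family, had a ratio of 0.75 and was not called. *EPB41L3*, whose protein ties Caspr2 to the cytoskeleton, averaged 227 RPKM in the ducks, near the 232 RPKM of chicken (-0.04). Of 7 paranodal genes, 1 was lower in the ducks, *CNTNAP1* (-1.82), which averaged 28.2 RPKM in the ducks (SD 12.7) and reached 102.4 RPKM in chicken. *NFASC*, which encodes neurofascin and is the next gene to *CNTN2* in the Pekin duck assembly, had a ratio of -0.47. *EPB41* had a ratio of 0.88 and the spectrin gene *SPTBN1* one of -0.63.

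Of 11 measured nodal genes, 2 were higher in the ducks and 1 lower. *GLDN*, which encodes gliomedin, a Schwann cell protein that clusters sodium channels, was 492 RPKM in the ducks (SD 293) and 112 RPKM in chicken (log2 ratio 2.12). *KCNQ3*, a subunit of the nodal M-type potassium channel, was 24.0 and 7.04 RPKM (1.64). The lower gene, *SCN9A* (-1.56), stands in the chicken annotation alone, so its duck values come from duck reads counted on that annotation. The part of this in its ratio was not tested. The paper counts *SCN9A* among its nociceptor markers. Over the 29 genes of these 3 lists, 5 were called higher and 2 lower, against 20.3% and 12.1% of all genes, so that neither share exceeded the background. Their median was 0.38 and that of all genes 0.22.

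In ruddy duck, 6 of the 29 were at least 2-fold lower than in the other ducks and 1 was higher, near the 17% and 4.76% of all genes. The lower ones were *LGI3* (-2.64, 3.97 RPKM against 13.2 to 45.2 RPKM), the sodium channel beta subunit gene *SCN2B* (-2.18, 4.80 against 20.2 to 29.9 RPKM), *CNTNAP1* (-1.88, 8.03 against 20.2 to 41.1 RPKM), *ADAM11* (-1.65), *SCN4B* (-1.36) and *SPTBN4* (-1.12). The higher one was *GLDN* (1.35), at 996 RPKM against 286 to 703 RPKM. The median of the 29 was -0.30, close to the -0.27 of all genes. The nodal sodium channel genes *SCN8A* and *SCN1A* had ratios of -0.51 and 0.36.

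**Figure D4:**
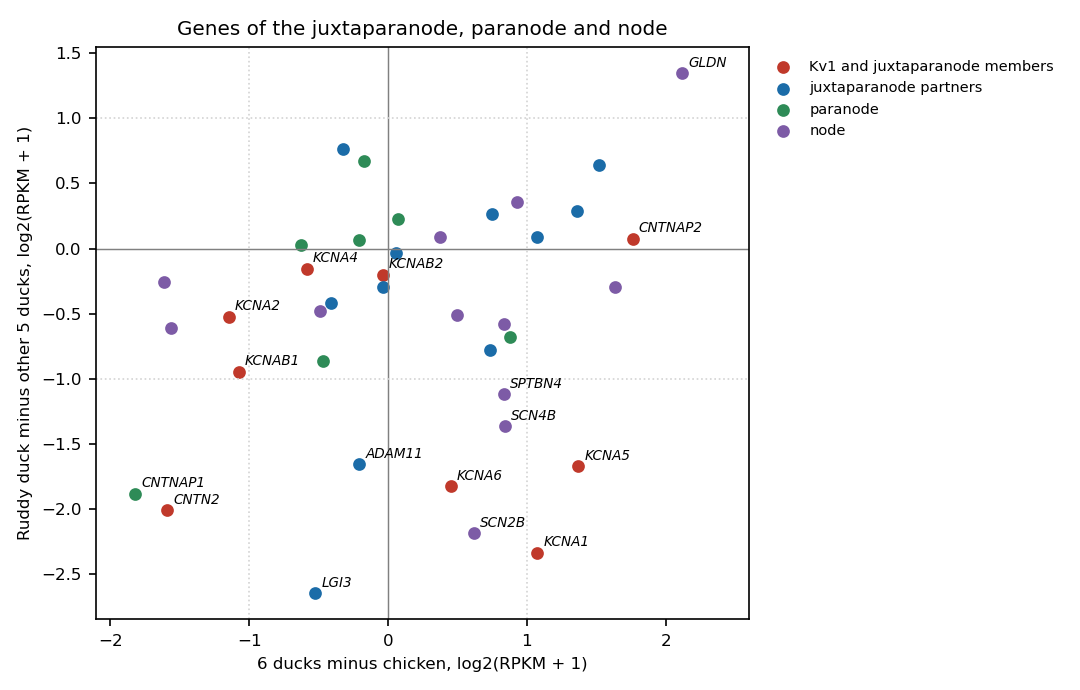
Each point is a gene of the members or of the juxtaparanode, paranode or node lists, with the log2(RPKM + 1) difference of the 6 ducks to chicken on the x axis and of ruddy duck to the other 5 ducks on the y axis; dotted lines mark 2-fold. *KCNA1*, *KCNA5* and *KCNA6* lie low in ruddy duck on the right side, *CNTN2* and *CNTNAP1* (-1.82 and -1.88) low on the left side, and *GLDN* (2.12 and 1.35) high on both axes.

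Among the genes of the same families that are not members, *KCNA3* was below 1 RPKM in every duck and at 1.33 RPKM in chicken, and *KCNA10* did not exceed 0.159 RPKM. *CNTN3* averaged 13.4 RPKM in the ducks against 2.21 RPKM in chicken (log2 ratio 2.17), and *CNTN5* was 3.97 and 1.04 RPKM (1.28). *CNTNAP3*, in the duck annotation alone, had a ratio of 0.98, and *CNTN6* one of 0.46. Of the 6 contactin and Caspr genes that passed the filter, *CNTN3* and *CNTN5* were called higher in the ducks and none lower. Of all genes, 20.3% were called higher and 12.1% lower.

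The study set gene levels against that of *PIEZO2*, the mechanically gated channel of touch receptors, across the species. *PIEZO2* ranged from 48.2 RPKM in chicken and 68.3 RPKM in harlequin duck to 101.8 RPKM in Pekin duck. Pearson's *r* was taken over the 7 species means, and its two-sided p came from all 5040 assignments of values to species (exact permutation test), which treats the species as unrelated. Of the 8 members, 1 had a positive *r* at an exact p under 0.05, against 6.25% of 12496 genes, and 2 had a negative one, against 6.73%. No member passed Benjamini-Hochberg adjustment over all genes, and no other gene did (smallest adjusted p = 0.363). With 7 species an exact p cannot fall below 0.000198. Over 12496 genes, one could pass only if many genes lay near that limit. The lack of a pass is thus largely set by the number of species.

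*CNTNAP2*, whose value had been known beforehand, had the highest *r* of the members. It was 0.94 (exact p = 0.00575), the adjusted p being 0.373. By rank, rho was 0.79 (exact p = 0.0480). Over the 6 ducks *r* was 0.81 (exact p = 0.0556), and without chicken and harlequin duck, the 2 species farthest from the median of *PIEZO2*, it was 0.86 (exact p = 0.0917). The value thus changed little with the species used, while the call did not hold in these smaller sets. It held without each duck in turn.

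The *r* of *KCNAB1* was -0.90 (exact p = 0.00754), the adjusted p being 0.373. By rank, rho was -0.71 (exact p = 0.0881). Over the 6 ducks *r* was -0.84 (exact p = 0.0361). Leaving out chicken and harlequin duck together gave -0.45 (exact p = 0.425). These 2 species had the lowest *PIEZO2* and the highest *KCNAB1*. The call of *KCNAB1* held without each duck in turn, with *r* at -0.91 without harlequin duck (exact p = 0.0361). It also held without chicken and ruddy duck (*r* = -0.89, exact p = 0.0417). For *CNTN2*, *r* was -0.83 (exact p = 0.0256) with the same adjusted p, and rho was -0.71 (exact p = 0.0881). Over the ducks it was -0.45 (exact p = 0.388) and without the 2 farthest species -0.24 (exact p = 0.617). Without chicken and ruddy duck it was -0.76 (exact p = 0.167), so the value over the ducks depended on ruddy duck as well as on the absence of chicken. The call was lost on the log2 scale (*r* = -0.68, exact p = 0.136) and when levels were divided by those of pan-neuronal genes (*r* = -0.64, exact p = 0.0734). It was also lost without Pekin duck (*r* = -0.82, exact p = 0.0528), without harlequin duck (*r* = -0.89, exact p = 0.0611) and without wood duck (*r* = -0.83, exact p = 0.0514).

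*KCNA1* and *KCNA5* had *r* values of 0.57 (exact p = 0.183, adjusted p = 0.469) and 0.61 (exact p = 0.140, adjusted p = 0.426). Both depended on ruddy duck, which combined 92.4 RPKM of *PIEZO2* with the lowest *KCNA1* and *KCNA5*. Without it *r* was 0.83 for *KCNA1* (exact p = 0.0431) and 0.91 for *KCNA5* (exact p = 0.0208). These calls were lost when chicken was left out as well, with *r* at 0.73 (exact p = 0.208) and 0.74 (exact p = 0.125). For *KCNA2*, *r* was -0.61 (exact p = 0.149) over 7 species and 0.36 over the ducks (exact p = 0.493). Without harlequin duck it was -0.91 (exact p = 0.0361). *KCNA6* and *KCNAB2* had *r* values of 0.09 and 0.08 (exact p = 0.858 and 0.860). The rho values of *KCNA1*, *KCNA2*, *KCNA5*, *KCNA6* and *KCNAB2* lay between -0.25 and 0.57, with an exact p of 0.200 at the lowest.

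**Figure D5:**
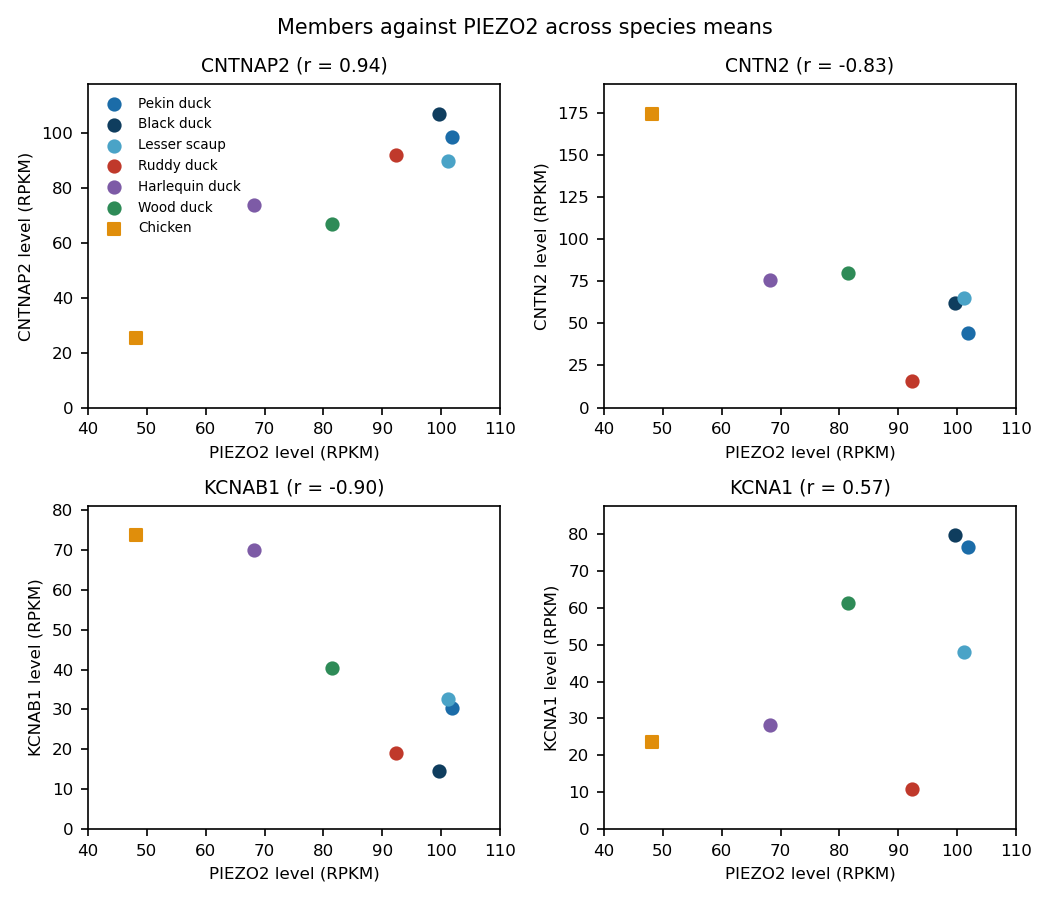
Level of *CNTNAP2*, *CNTN2*, *KCNAB1* and *KCNA1* (RPKM, y axes from 0) against that of *PIEZO2* (RPKM, x axis) over species means, with chicken as a square. *CNTNAP2* goes up with *PIEZO2* (*r* = 0.94), chicken alone lies high for *CNTN2*, chicken and harlequin duck lie high for *KCNAB1*, and ruddy duck lies low for *KCNA1*.

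Of the partner lists, *ADAM23* (*r* = 0.92, exact p = 0.00595) and *DLG3* (*r* = 0.91, exact p = 0.00794) were positive at an exact p under 0.05 among 11 juxtaparanode partners, and none was negative. Of 11 nodal genes, 3 were positive, *SCN1A* and *KCNQ3* among them, and 1 was negative (*SCN9A*). Of 7 paranodal genes, *EPB41* was positive (*r* = 0.81, exact p = 0.0256). Of all 12496 genes, 6.25% were positive and 6.73% negative at this threshold. The positive genes named here were lowest in chicken, which also had the lowest *PIEZO2*, and *SCN9A* was highest in chicken. For these lists *r* is given over the 7 species alone, and its dependence on chicken was not tested. No gene of these lists passed adjustment over all genes, a step limited by the number of species.

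For the 3 members of highest mean level, the genes of most similar pattern were sought among 9730 named genes in both annotations, by *r* on the log2(RPKM + 1) scale over the 7 species, as a description. *CNTNAP2* was most like *RAB40B* (0.99), *ANKRD55* (0.99) and *PRKCI* (0.99), the last at 18.0 RPKM in chicken and 31.5 to 41.8 RPKM in the ducks. *CNTN2* was most like *CDK6* (0.99), *RETSAT* (0.99) and *PPM1A* (0.98). *CDK6*, which encodes a cell cycle kinase, had 13.7 RPKM in chicken, 2.90 RPKM in ruddy duck and 6.92 to 8.92 RPKM in the other ducks. *KCNAB2* was most like *MGST2* (0.97), *TMEM72* (0.97) and *FAM234B* (0.95). *FAM234B* was highest in wood duck, at 47.7 RPKM, and lowest in harlequin duck, at 15.4 RPKM, a wider range than that of *KCNAB2*.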

How the data were processed

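Trigeminal ganglion mRNA of 21 embryos was sequenced. By the paper's methods and the processing notes of the submitters, reads were trimmed with Trimmomatic 0.36. Reads of every species were aligned to both the duck (BGI_duck_1.0) and the chicken (GRCg6a) genome by STAR 2.5.4b. They were counted per gene by featureCounts (Subread 1.6.2) at default settings, which ignore strand and reads of several places. The values of the duck and the chicken annotation were then merged by gene symbol. From these counts the authors computed the deposited RPKM values in edgeR 3.22.3 and gave 1 mean per species over 3 birds. Gene length and reads lost on another species' genome can move ratios between species. Depth per bird was not given, so no interval is printed.

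Python 3.11.15 with numpy 2.4.6 was used. The filter was a mean RPKM of 1 or more over species, and log2 ratios used a pseudocount of 1. Exact permutation tests were adjusted over all genes by Benjamini-Hochberg. The permutation test was tried on simulated data without the adjustment. The members, lists and tests were chosen with earlier results of these data known. Named genes are the members, *PIEZO2*, the 3 genes most like each of the 3 members of highest mean, and up to 4 genes per list by size of the duck to chicken ratio. Other genes named, and the ruddy duck comparison with its alternatives, were chosen after their values were seen, as was leaving out chicken and ruddy duck together. Alternatives were log2 and rank scales, species left out, median-ratio scaling, division by pan-neuronal genes, the median of the ducks, genes in both annotations alone, a pseudocount of 0.1 and filters of none or 5 RPKM. Some genes of the lists are not reported here.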

Additional observations from a re-analysis of the deposited data

Results flagged for a closer look

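Each of the 9 genes was screened for an isolated species, once among all 7 species and once among the 6 ducks. Of these 18 screens 2 were positive, and about 1 in 20 is positive by chance. *CNTN2* was isolated in chicken (174 RPKM), its gap to the nearest species being 0.596 of the range. *KCNA4* was isolated in chicken as well (0.696 RPKM), with a gap of 0.717 of the range, at levels below 1 RPKM throughout.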

How the results depend on the processing

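No paired analysis was possible because the table holds species means and no values of single birds, and leaving out single birds could not be run for the same reason. The count of members at least 2-fold apart between ducks and chicken was 6 and lay between 4 and 6 under the alternatives. That of members 2-fold lower in ruddy duck was 4 under each of the 4 alternatives run for it. They were a pseudocount of 0.1, median-ratio scaling, division by pan-neuronal genes, and Pekin duck and black duck alone as reference. A filter of 5 RPKM was not run for it, and *KCNA5*, 1 of these members, averaged 3.11 RPKM over the species. The count of members correlated with *PIEZO2*, 3 across the 7 species, was 1 by rank, 1 in the ducks alone, 1 without chicken and ruddy duck, 0 without chicken and harlequin duck and 5 without ruddy duck, and between 2 and 4 elsewhere. At 4, with no filter, *KCNA4* was the added gene. The sign of *r* turned in 13 of 104 cases, none of them a gene called across the 7 species. For *KCNA2* it was 0.36 in the ducks alone and 0.45 without chicken and ruddy duck. For *KCNA6* it was -0.0357 by rank, -0.17 in the ducks alone, -0.00767 without lesser scaup, -0.41 without chicken and harlequin duck, -0.18 after median-ratio scaling and -0.19 without chicken and ruddy duck. For *KCNAB2* it was -0.0263 without black duck, -0.15 without harlequin duck, -0.37 without chicken and harlequin duck, -0.23 after median-ratio scaling and -0.16 after division by pan-neuronal genes. The cause was not tested. All *KCNA* members stand in both annotations, so their shares had no other value. With 1 mean per species, neither the spread between birds nor the depth behind a low value such as that of *KCNA4* is known.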
